A study of Rattus norvegicus with 6 samples.

Results

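Transcripts of ion channels, calcium pumps and gap junction proteins were followed in primary rat cells grown from the nucleus pulposus, the soft centre of an intervertebral disc. The members are a list of 37 named genes, and 36 of the 17139 genes in the deposited count table carried one of these names. No row of the table was matched to the remaining one, the diacylglycerol-gated channel gene Trpc6, so its expression was not analysed here. The libraries are 3 of primary cells that had been given 10 µM bradykinin, a peptide that acts on the B1 and B2 receptors, and 3 of primary cells left untreated (control). The treated libraries carry the name B2R, but their treatment label names bradykinin and was followed. Strain, age, treatment time, and whether replicates came from separate animals or cultures, are not given in the sources used here, so p-values reflect only how far these libraries spread, and that spread may be technical. The study set out to learn what bradykinin does to transcription, with senescence and matrix turnover in view.

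Both bradykinin receptors couple to Gq, which activates phospholipase C and releases calcium from the endoplasmic reticulum. Loss of calcium from this store is sensed by STIM proteins, which open ORAI channels in the plasma membrane, while SERCA and plasma membrane pumps bring the ion back down. Calcium in the cytosol opens calcium-activated potassium and chloride channels, and the disc, a tissue that is compressed, acidic and osmotically loaded, also uses stretch-, acid- and volume-gated channels and gap junctions between its cells.

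Total counts ranged from 12883067 to 15462764 per library. Expression is stated in CPM, that is counts over library size with TMM factors, always in the order of replicates 1, 2 and 3. CPM are not divided by transcript length, so they compare libraries and not genes. Fold changes are log2 of bradykinin over control, ± SE, from a quasi-likelihood fit in edgeR, with p adjusted over all tested genes by the Benjamini-Hochberg method, and "changed" means an adjusted p not above 0.05. Of the 6 libraries, bradykinin replicate 3 was the one that stood apart. Its log2 difference from the control mean had an SD of 0.62 across all tested genes. In bradykinin replicates 1 and 2 this SD was 0.30 and 0.29. Each tested member's fold change is therefore also given from the 5 libraries without bradykinin replicate 3. Over the tested members alone the SD was 0.56, 0.34 and 0.62 in bradykinin replicates 1, 2 and 3, so replicate 1 also spread widely there. Some of these members had few counts in replicate 1, with 3 for Cacna1d (17 to 33 in controls) and 6 for Asic1 (11 to 25 in controls). Their part in that SD was not tested. Of 14 listed nucleus pulposus markers 10 had a row, and they summed to 504.2 to 750.4 CPM with bradykinin and to 501 to 529.9 CPM in controls. Acan, Pax1, Foxf1, Cdh2 and Sox9 had 235 or more counts in each library, while Col2a1 had 0 to 2, Krt8 10 to 27 and Ptn 14 to 27. Acan was at 498, 511 and 301 CPM with bradykinin, against 257, 272 and 257 CPM in controls. In the 5 libraries Acan rose by 0.95 (edgeR adjusted p = 1.6e-07) and Car3 fell by 1.44 (edgeR adjusted p = 0.00103). The 6 annulus and tendon fibroblast markers summed to 62494 to 78601 CPM with bradykinin and to 65943 to 70544 CPM in controls, and the 8 smooth muscle and pericyte markers to 2626 to 3486 CPM with bradykinin and to 3401 to 3531 CPM in controls. In the 5 libraries Acta2 fell by 0.56 (adjusted p = 1.7e-05), Tagln by 0.40 (adjusted p = 0.00031) and Myh11 by 0.33 (adjusted p = 0.0115). Thbs4, of the annulus and tendon list, rose there by 0.70 (adjusted p = 0.00033). Des, of the same smooth muscle list as Acta2, rose by 0.46 (adjusted p = 0.00636). The other tested markers of these lists, Cnn1 (-0.14), Smtn (0.065), Notch3 (-0.32), Col1a1 (0.095), Col1a2 (0.13), Scx (-0.0068) and Mkx (-0.063), had no call there. Acan, Car3, Acta2, Tagln, Myh11, Thbs4 and Des did not pass by edgeR in the 6 libraries (adjusted p from 0.383 for Car3 to 0.737 for Tagln). Bradykinin replicate 3 had Tagln at 1538 CPM, above the controls (1425 to 1494 CPM), and Acta2 at 1420 CPM, next to them (1425 to 1533 CPM). In that library Myh11 lay below all controls, and Thbs4 and Des above them. The 4 endothelial markers with a row summed to 7 to 21 counts per library with bradykinin and to 9 to 20 in controls. The 2 of 8 leukocyte markers with a row, Cd68 and Csf1r, summed to 3 to 5 counts with bradykinin and to 5 to 7 in controls.

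Among the channel, pump and gap junction genes, the potassium channel gene Kcnn4 stood out as higher with bradykinin, and most of the others lay close to their control levels in bradykinin replicates 1 and 2. Of the 36 genes, 33 passed the filter on low counts in the 6 libraries. By edgeR, 0 of these 33 changed, as did 0 of all 12413 tested genes (0.0%). At an unadjusted p under 0.05 there were 3 members, Kcnn4, Clcn3 and Panx1, and 849 of all genes (6.84%), so that share of the members was near the background. DESeq2 called 1 member, Kcnn4, as higher, while it called 0.201% of all genes higher. Without bradykinin replicate 3, edgeR tested 34 members and called 1, again Kcnn4, as higher, and 0 as lower, against 1.95% and 1.15% of 12536 tested genes. The median log2 fold change of the members was -0.070 in the 6 libraries and 0.010 without bradykinin replicate 3, beside 0.0082 and 3.7e-05 for all tested genes. In bulk RNA, a change in the share of a cell type and a change in RNA per cell cannot be told apart, and the part of the marker changes given above in these values was not tested.

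**Figure D1:**
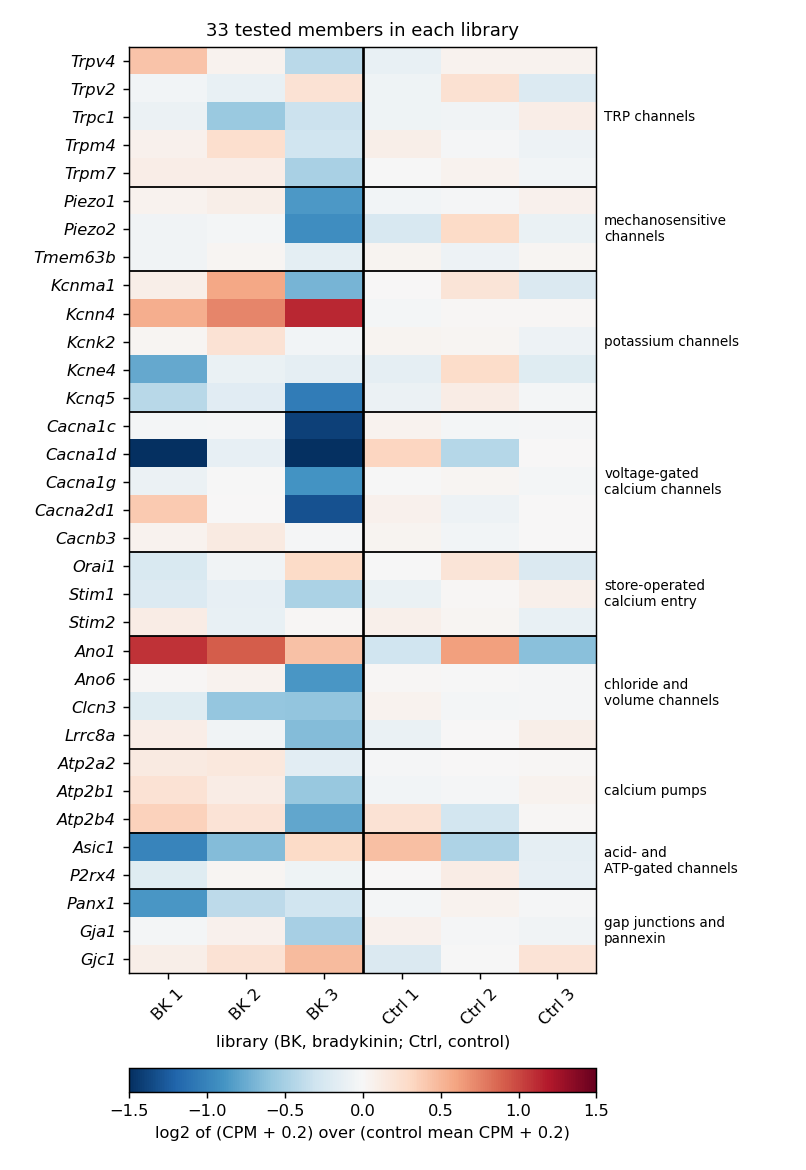
Each row is 1 of the 33 tested members, grouped by role, and each column 1 library, with bradykinin libraries on the left and control libraries on the right. Colour is the log2 ratio of CPM (with 0.2 CPM added) to the control mean, red for higher and blue for lower, limited at 1.5 either way. Kcnn4 is red in all 3 bradykinin libraries, and much of the blue lies in bradykinin replicate 3.

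Potassium channels hold the membrane negative and so sustain the drive for calcium entry. Kcnn4 (ENSRNOG00000019440) encodes the intermediate-conductance calcium-activated channel, which is opened through calmodulin bound to it. Kcnn4 was at 31.1, 35.4 and 46.7 CPM with bradykinin, against 20.8, 21.4 and 21.4 CPM in controls. All 3 bradykinin libraries lay above all 3 controls, and the controls themselves differed little. Its log2 fold change was 0.83 ± 0.16, the 24th smallest p of the 12413 tested genes, and did not pass by edgeR (adjusted p = 0.4996). By DESeq2 it passed (adjusted p = 0.0109), and by edgeR without bradykinin replicate 3 it rose by 0.65 ± 0.088 (adjusted p = 0.00128). In the 6-library design, the other scalings and filters, limma-voom, the gene span offset, the replicate block and leaving out any library but bradykinin replicate 3 gave adjusted p from 0.283 to 0.935 and log2 fold changes from 0.79 to 0.95. Over 11 further alternatives without bradykinin replicate 3, the call was kept in each, with adjusted p from 3.3e-05 to 0.0151. Kcnn4 is also the potassium channel of lymphocytes and red cells. The listed lymphocyte markers Cd3e and Cd79a had no row, and no red cell marker was looked for. The part of these cells in the level of Kcnn4 was not tested. Of all tested genes, 8.84% lay with every bradykinin library above every control, and of the members 1, Kcnn4, did.

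The other potassium channel genes showed no call. Kcnk2, which encodes the stretch- and lipid-gated leak channel TREK, was at 142, 161 and 135 CPM with bradykinin, against 143, 142 and 132 CPM in controls (0.073 ± 0.10 in 6 and 0.13 ± 0.061 in 5 libraries), and its groups overlapped. Kcnq5, which encodes a voltage-gated channel of the M-current type, was at 8.91, 10.6 and 5.66 CPM with bradykinin, against 11.2, 12.9 and 11.7 CPM in controls. Its bradykinin libraries all lay below the controls, furthest in replicate 3 (log2 fold change -0.51 ± 0.23, adjusted p = 0.737; -0.29 ± 0.13 without replicate 3). The large-conductance calcium-activated channel gene Kcnma1 had 29 to 67 counts with bradykinin and 40 to 52 in controls (0.082 ± 0.34 in 6 and 0.38 ± 0.24 in 5 libraries). Kcne4, an accessory subunit gene, had 6 to 13 counts with bradykinin and 12 to 17 in controls (-0.36 ± 0.36 in 6 and -0.47 ± 0.47 in 5 libraries). At such counts a difference of this size was not detectable. Kcnj8, the pore subunit of an ATP-sensitive channel, had 3 to 10 counts with bradykinin and 1 to 10 in controls and was not tested.

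**Figure D2:**
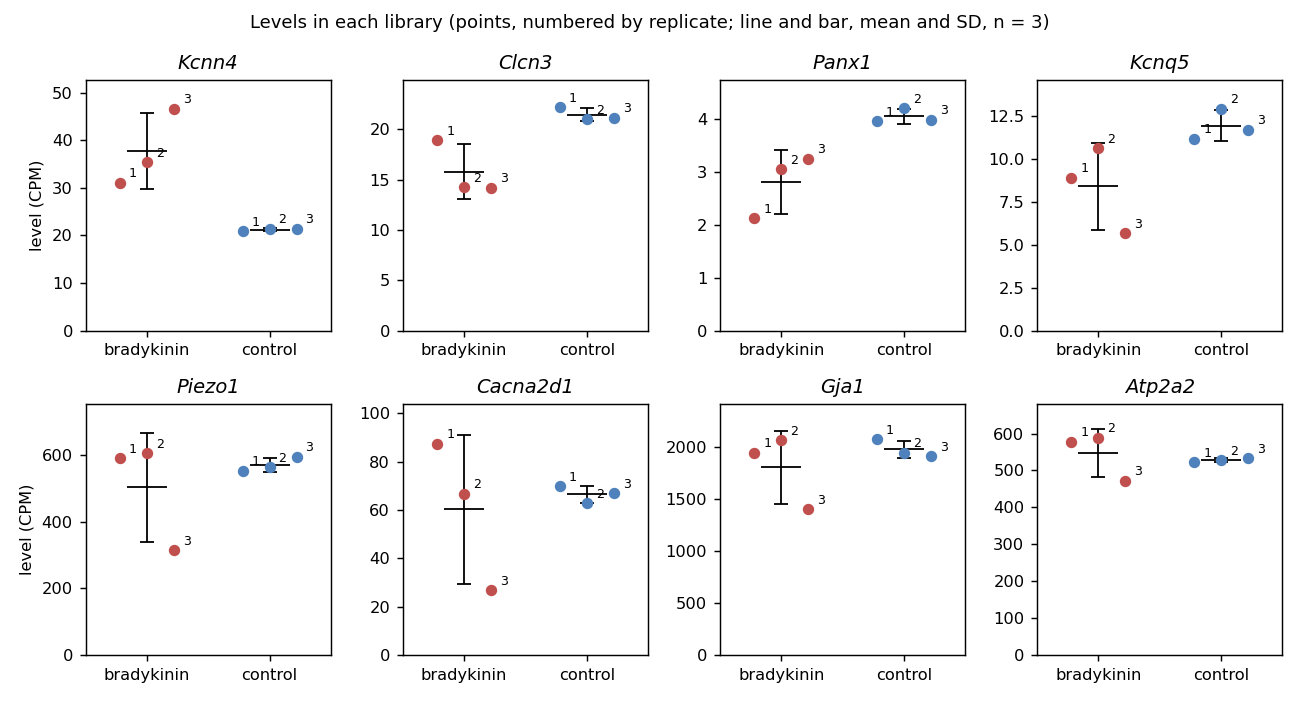
Level in CPM (vertical axis, from 0) of 8 members in each library, bradykinin left of control. Points are libraries numbered by replicate, and the line and bar give the mean and SD (n = 3 each). The upper row holds genes whose groups do not overlap, and in the lower row bradykinin replicate 3 lies below the other 5 libraries.

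Chloride channels and transporters set cell volume and the pH of endosomes. Clcn3 (ENSRNOG00000010682), an endosomal chloride-proton exchanger gene, was at 18.9, 14.2 and 14.2 CPM with bradykinin, against 22.2, 21.0 and 21.2 CPM in controls. All bradykinin libraries lay below all controls, replicate 1 nearest to them. The log2 fold change was -0.44 ± 0.15 (adjusted p = 0.707) and, without bradykinin replicate 3, -0.38 ± 0.12 (adjusted p = 0.129). That value moved to -0.59 ± 0.13 (adjusted p = 0.0235) when bradykinin replicate 1 was also left out and to -0.18 ± 0.12 (adjusted p = 0.504) when replicate 2 was, where the single bradykinin library left is taken to vary as the controls do. Ano6, a calcium-activated lipid scramblase and channel gene, was at 225, 229.8 and 121 CPM with bradykinin, against 225, 221 and 219.8 CPM in controls. Replicates 1 and 2 lay at or just above the controls, and replicate 3 at 54.0% of the mean of the other 5 libraries (-0.21 ± 0.23 in 6 and 0.036 ± 0.044 in 5 libraries). Lrrc8a, the essential subunit of the volume-regulated anion channel, was at 61.6, 55.5 and 36.8 CPM with bradykinin, against 53.8, 58.0 and 61.0 CPM in controls, also lowest in replicate 3 (-0.17 ± 0.19 in 6 and 0.023 ± 0.073 in 5 libraries). Ano1, the calcium-activated chloride channel gene, had 12 to 17 counts with bradykinin and 4 to 13 in controls (1.05 ± 0.48 in 6 and 1.25 ± 0.51 in 5 libraries, adjusted p = 0.737 and 0.256), and its groups overlapped.

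Gap junctions pass small molecules between cells, and pannexin channels release ATP. Gja1 (ENSRNOG00000000805), the gene of the most widely expressed connexin, was at 1942, 2063 and 1402 CPM with bradykinin, against 2071, 1944 and 1912 CPM in controls. Replicates 1 and 2 lay among the controls and replicate 3 at 70.6% of the mean of the other libraries. The log2 fold change was -0.13 ± 0.15 (adjusted p = 0.765), and without replicate 3 it was 0.020 ± 0.045. Gjc1, another connexin gene, was at 26.4, 28.9 and 34.6 CPM with bradykinin, against 21.4, 24.7 and 28.7 CPM in controls (0.27 ± 0.15 in 6 and 0.15 ± 0.11 in 5 libraries, adjusted p = 0.737 and 0.595), with overlapping groups. Panx1 (ENSRNOG00000010060) was at 2.13, 3.05 and 3.25 CPM with bradykinin, against 3.96, 4.21 and 3.99 CPM in controls, from 27 to 50 counts with bradykinin and 59 to 61 in controls. Every bradykinin library lay below every control. Its log2 fold change was -0.52 ± 0.21 (adjusted p = 0.727) and -0.64 ± 0.24 without bradykinin replicate 3 (adjusted p = 0.1999), so it did not pass in either fit. Besides Kcnq5, Clcn3 and Panx1, the genes with no overlap on the lower side were Trpc1 and Stim1, 5 of 33 members (15.2%) against 8.71% of all tested genes.

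Promoter windows are printed for Clcn3 and Panx1, the members on the lower side with an unadjusted p under 0.05. For Kcnn4, also under that threshold, the reference used here held no window. They run from 250 bases before to 50 after the transcript start in RefSeq, build GRCr8, which is not the build of the count table. RefSeq gives Clcn3 a pair of starts, at chr16:34137754-34138053 and chr16:34165294-34165593 on the plus strand, and Panx1 lies at chr8:20171151-20171450 on the minus strand. Capitals mark matches, on either strand, to the cAMP response element core TGACG, the full palindromic element TGACGTCA, which contains the core, the AP-1 site TGANTCA and the GC box GGGCGG.
Clcn3 upstream start: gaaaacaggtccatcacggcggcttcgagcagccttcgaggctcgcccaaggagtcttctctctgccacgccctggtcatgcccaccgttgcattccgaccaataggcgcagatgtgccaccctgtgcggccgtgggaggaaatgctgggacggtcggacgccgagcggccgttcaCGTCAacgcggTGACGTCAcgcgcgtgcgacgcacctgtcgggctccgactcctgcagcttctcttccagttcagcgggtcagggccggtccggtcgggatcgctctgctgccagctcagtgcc
Clcn3 downstream start: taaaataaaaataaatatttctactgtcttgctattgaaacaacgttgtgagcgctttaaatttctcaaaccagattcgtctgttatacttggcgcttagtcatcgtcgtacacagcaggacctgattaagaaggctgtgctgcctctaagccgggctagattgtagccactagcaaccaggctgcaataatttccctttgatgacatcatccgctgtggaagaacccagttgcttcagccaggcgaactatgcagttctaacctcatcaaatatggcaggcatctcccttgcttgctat
Panx1: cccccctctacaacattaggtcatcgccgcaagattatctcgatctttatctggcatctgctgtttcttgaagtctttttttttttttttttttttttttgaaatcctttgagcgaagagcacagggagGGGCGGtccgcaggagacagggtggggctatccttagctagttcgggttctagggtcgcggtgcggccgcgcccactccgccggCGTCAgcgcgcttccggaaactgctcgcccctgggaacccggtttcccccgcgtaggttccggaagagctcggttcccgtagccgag
The upstream Clcn3 window held 1 full element and 3 cores, of which 2 lie within that element, and the downstream one held none of the motifs. Panx1 held 1 core and 1 GC box. Of all 33469 promoter windows, 1.83% held the full element, 21.2% the core, 7.33% the AP-1 site and 33.1% the GC box. Windows were found for 30 of the listed members, Trpc6 included, 34 windows in all. Of these, 2 held the full element (Clcn3 and Lrrc8a), 14 the core (Trpc6 among them), 1 the AP-1 site (Gja1) and 24 the GC box. The shares cover all windows, whether or not their genes were tested here, so no difference from them is read as particular to the members. A match of letters does not show that a factor binds there.

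Voltage-gated calcium channels open on depolarisation. Cacna1c (ENSRNOG00000007090), the L-type pore gene, was at 30.4, 30.9 and 11.7 CPM with bradykinin, against 32.2, 30.4 and 30.8 CPM in controls. Bradykinin replicates 1 and 2 were within the range of the controls or next to it, and replicate 3 was at 37.9% of the mean of the other 5. Cacna2d1, the auxiliary alpha2-delta subunit that carries the channel to the membrane, was at 87.5, 66.8 and 26.8 CPM with bradykinin, against 69.8, 62.8 and 66.9 CPM in controls. The bradykinin libraries lay on both sides of the controls, and replicate 3 was at 37.9% of the mean of the others. The T-type pore gene Cacna1g was at 79.6, 84.3 and 45.2 CPM with bradykinin, against 84.4, 86.7 and 82.8 CPM in controls, lowest again in replicate 3. The log2 fold changes in the 6 libraries were -0.36 ± 0.33, -0.14 ± 0.36 and -0.28 ± 0.22 for Cacna1c, Cacna2d1 and Cacna1g, and -0.023 ± 0.077, 0.21 ± 0.093 and -0.046 ± 0.057 without bradykinin replicate 3. Cacnb3, a cytosolic beta subunit gene, was at 56.7, 60.0 and 53.9 CPM with bradykinin, against 56.2, 53.1 and 54.8 CPM in controls, with overlapping groups (0.055 ± 0.094 in 6 and 0.092 ± 0.064 in 5 libraries). The L-type gene Cacna1d had 3 to 21 counts with bradykinin and 17 to 33 in controls (-1.26 ± 0.61 in 6 and -0.89 ± 0.53 in 5 libraries, adjusted p = 0.737 and 0.469). With 1 library left out, the value of Cacna1d ran from -2.53 (without bradykinin replicate 2) to -0.88. Cacna1h, a T-type gene, had 1, 40 and 1 counts with bradykinin and 0, 2 and 1 in controls, so that 1 library held nearly all of its reads, and it was not tested.

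No gene of a stretch-activated channel changed. Piezo1 (ENSRNOG00000056786), the main stretch-gated cation channel gene, was at 590.2, 606 and 315 CPM with bradykinin, against 554, 563 and 595 CPM in controls. Replicates 1 and 2 lay at or next to the controls, and replicate 3 at 54.2% of the mean of the other libraries. The log2 fold change was -0.18 ± 0.23 (adjusted p = 0.782) and 0.067 ± 0.044 without replicate 3. Piezo2, known from touch neurons, was at 6.78, 6.90 and 3.58 CPM with bradykinin, against 5.91, 8.63 and 6.56 CPM in controls (-0.29 ± 0.28 in 6 and -0.036 ± 0.18 in 5 libraries). Tmem63b, an osmotically gated channel gene, was at 51.5, 54.6 and 48.5 CPM with bradykinin, against 54.9, 50.9 and 54.7 CPM in controls (-0.055 ± 0.10 in 6 and -0.012 ± 0.067 in 5 libraries). Both had overlapping groups.

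Of the TRP cation channels, none of the 5 tested changed. Trpv4 (ENSRNOG00000001195), an osmo- and stretch-sensitive calcium channel gene of cartilage and disc, was at 7.80, 5.96 and 4.30 CPM with bradykinin, against 5.33, 5.97 and 5.95 CPM in controls, with 66 to 99 counts with bradykinin and 82 to 88 in controls. The controls lay inside the range of the bradykinin libraries (0.061 ± 0.23, adjusted p = 0.934; 0.26 ± 0.18 without replicate 3). Trpm7, which encodes a magnesium and calcium channel fused to a kinase, was at 106, 106 and 70.5 CPM with bradykinin, against 98.2, 102 and 95.4 CPM in controls (-0.068 ± 0.16 in 6 and 0.10 ± 0.054 in 5 libraries). Trpm4, the calcium-activated sodium-permeable channel gene, was at 49.7, 56.7 and 38.8 CPM with bradykinin, against 50.7, 47.0 and 45.2 CPM in controls (0.023 ± 0.15 in 6 and 0.16 ± 0.077 in 5 libraries). In both genes replicate 3 was the lowest library. Trpv2, a cation channel gene of the vanilloid subfamily, was at 20.2, 19.3 and 24.3 CPM with bradykinin, against 19.9, 24.5 and 18.0 CPM in controls, with overlapping groups (0.031 ± 0.16 in 6 and -0.076 ± 0.12 in 5 libraries). Trpc1, a canonical TRP channel gene downstream of phospholipase C, was at 4.73, 3.34 and 3.97 CPM with bradykinin, against 4.81, 4.84 and 5.41 CPM in controls and lay lower in each bradykinin library, at 46 to 61 counts with bradykinin and 69 to 80 in controls (-0.32 ± 0.19 in 6 and -0.32 ± 0.21 in 5 libraries, adjusted p = 0.737 and 0.527).

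No gene of store-operated entry changed. Stim1 (ENSRNOG00000020425), the main sensor of calcium in the store, was at 24.5, 26.0 and 20.3 CPM with bradykinin, against 26.5, 28.7 and 29.7 CPM in controls. Every bradykinin library lay below every control, replicate 2 by less than 1 CPM (log2 fold change -0.26 ± 0.13, adjusted p = 0.737; -0.16 ± 0.088 without replicate 3). Stim2, the sensor of smaller losses, was at 37.9, 32.5 and 35.5 CPM with bradykinin, against 36.95, 35.9 and 32.6 CPM in controls (0.0059 ± 0.11 in 6 and 0.00042 ± 0.088 in 5 libraries), and Orai1 (ENSRNOG00000001336), the pore it opens, at 9.22, 10.5 and 13.3 CPM with bradykinin, against 10.8, 12.4 and 9.33 CPM in controls (0.022 ± 0.19 in 6 and -0.14 ± 0.15 in 5 libraries). Groups overlapped in both genes, and in Orai1 replicate 3 was the highest library.

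Calcium pumps were above most controls in bradykinin replicates 1 and 2 and at their lowest in replicate 3. Atp2a2 (ENSRNOG00000001285), the SERCA pump gene that refills the store, was at 578, 589 and 472 CPM with bradykinin, against 522, 528 and 533 CPM in controls. Its log2 fold change was 0.051 ± 0.11 (adjusted p = 0.871) in the 6 libraries and 0.15 ± 0.040 (adjusted p = 0.0711) without replicate 3, where DESeq2 placed it past the threshold (adjusted p = 0.0398). Atp2b1 (ENSRNOG00000004026), a plasma membrane calcium pump gene, was at 171, 160.1 and 99.9 CPM with bradykinin, against 144, 146 and 154 CPM in controls. Replicates 1 and 2 were above all controls and replicate 3 below them all (-0.042 ± 0.19, adjusted p = 0.947; 0.16 ± 0.052, adjusted p = 0.131 without replicate 3). Atp2b4, a further pump of that kind, was at 16.7, 15.1 and 7.55 CPM with bradykinin, against 15.3, 10.8 and 13.3 CPM in controls (-0.0067 ± 0.29; 0.27 ± 0.14 without replicate 3).

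Channels opened by ATP or acid gave no call. P2rx4, an ATP-gated cation channel gene, was at 33.4, 38.9 and 36.4 CPM with bradykinin, against 38.2, 41.1 and 34.8 CPM in controls, with overlapping groups (-0.070 ± 0.11 in 6 and -0.072 ± 0.091 in 5 libraries). P2rx7, the ATP-gated channel gene tied to inflammasome activation, had 2, 7 and 3 counts with bradykinin and 12, 3 and 42 in controls. Control replicate 3 thus held most of its reads, and P2rx7 passed the filter only without bradykinin replicate 3, where its log2 fold change was -1.89 ± 0.91 (adjusted p = 0.353). Asic1, an acid-sensing channel gene, had 6, 9 and 22 counts with bradykinin and 25, 11 and 15 in controls, and its log2 fold change was -0.39 ± 0.48 in the 6 libraries and -1.003 ± 0.50 without replicate 3.

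**Figure D3:**
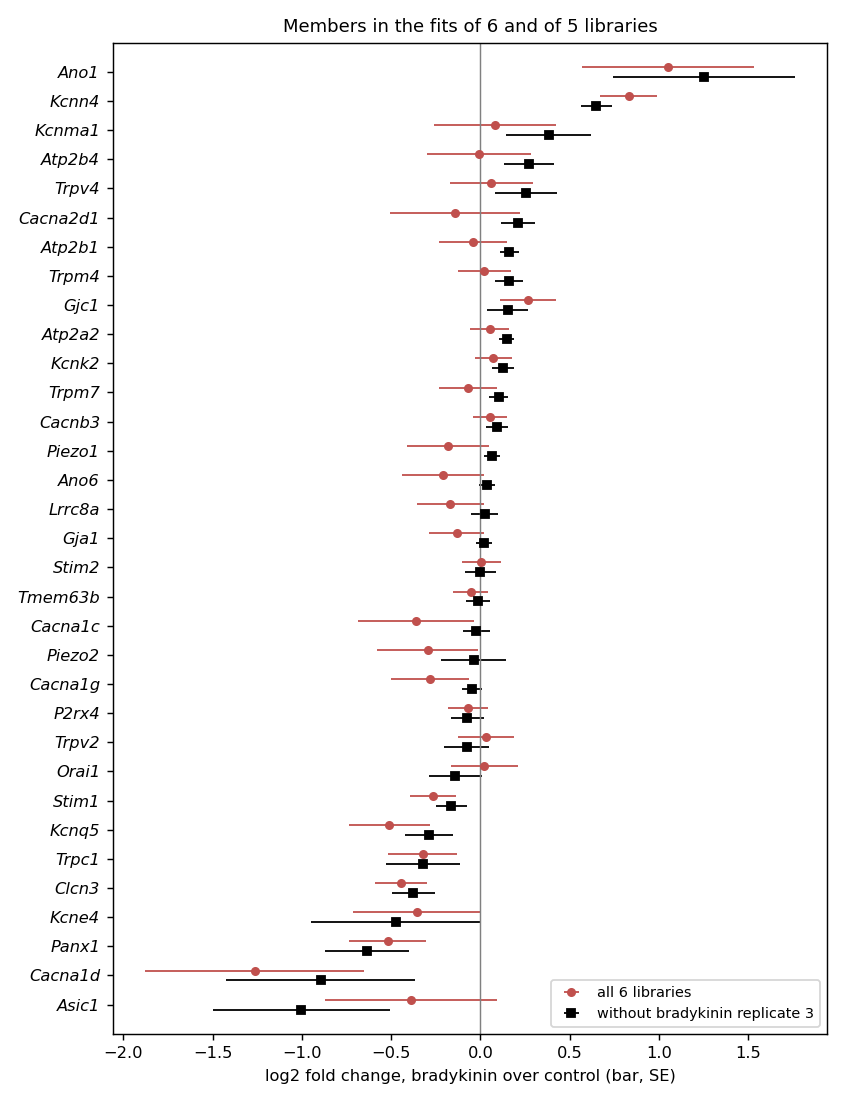
Log2 fold change of bradykinin over control (horizontal axis) with its SE for the 33 members tested in the 6 libraries, in all 6 libraries (red circles) and without bradykinin replicate 3 (black squares), ordered by the fold change without that library. Kcnn4 lies above 0 in both fits, and 10 members change sign.

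Much of the spread of these genes in the bradykinin group came from 1 library. Bradykinin replicate 3 was the lowest of the 6 libraries for 19 of the 33 members (57.6%), against 37.6% of all tested genes, and the highest for 3 (9.09%), Kcnn4, Orai1 and Gjc1, against 37.9%. The median log2 difference of the members from the control mean was 0.022 and 0.030 in bradykinin replicates 1 and 2 and -0.41 in replicate 3, where that of all tested genes was 0.010. Leaving this library out turned the sign of 10 members, and 21 of the 34 members then tested had a log2 fold change within 0.25 of 0. How often all tested genes did either was not counted, so neither value is read as particular to the members. Ranked by genomic span (RefSeq, GRCr8), 14 of the 33 members fell in the longest quintile of tested genes and 0 in the shortest. In the longest quintile the median log2 deviation of replicate 3 from the other 5 libraries was -0.86 over the members and -0.49 over all genes, while in the next to shortest quintile it was -0.029 and 0.18. Across genes, span and this deviation had a Spearman correlation of -0.69 over the 33 members and -0.51 over 11633 genes, which share the library and are not independent. Kcnn4, in the next to shortest quintile, was at 179% of the mean of the other 5 in this library, a log2 deviation of 0.87. This lay on the same side of 0 as the median of all genes in its quintile, 0.18, and further out. What made replicate 3 differ was not tested.

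**Figure D4:**
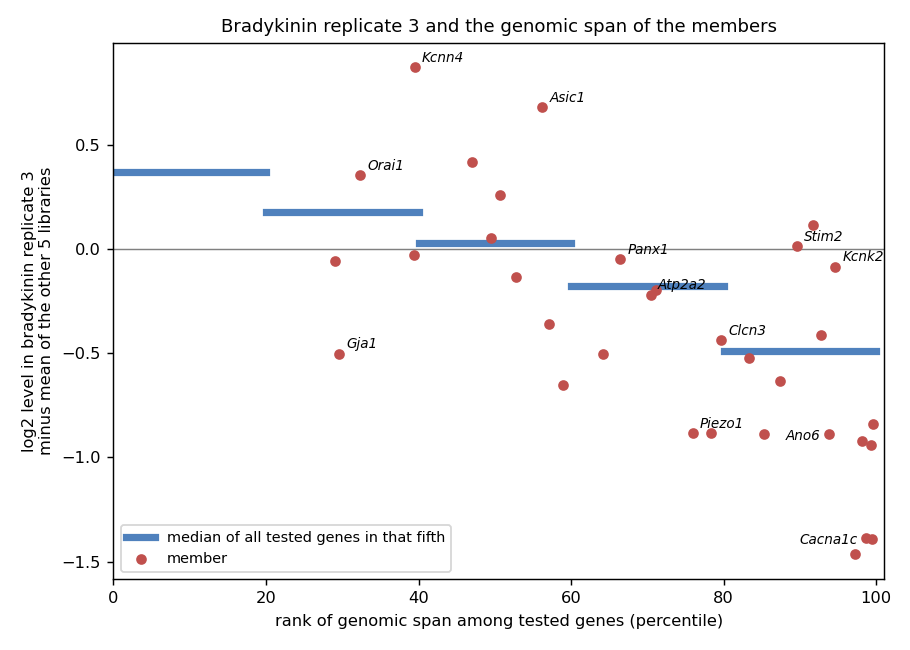
Log2 level in bradykinin replicate 3 minus the mean of the other 5 libraries (vertical axis) against the rank of a gene's genomic span among tested genes (horizontal axis, percentile). Red points are the 33 tested members, some of them named, and blue bars the median of all tested genes in each quintile of span. Both go down to the right, and Kcnn4 lies well above the bar of its quintile.

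Other genes of these families, 248 in 7 lists, were looked at in the same fits. Rows were found for 185, and 93 were tested in the 6 libraries. Of these, 0 changed by edgeR and 10 had an unadjusted p under 0.05, beside 0.0% and 6.84% of all tested genes. Without bradykinin replicate 3, 94 were tested, 1 rose and 2 fell, beside 1.95% and 1.15% of all tested genes. The riser was Clic4, a chloride intracellular channel gene, at 824, 839 and 901 CPM with bradykinin, against 727, 725 and 725 CPM in controls (0.24 ± 0.088 in 6 and 0.20 ± 0.039 in 5 libraries, adjusted p = 0.714 and 0.0148). Its bradykinin libraries all lay above the controls. Itpr1, the receptor gene through which inositol trisphosphate releases calcium, fell, at 172, 171 and 87.7 CPM with bradykinin, against 199 to 201 CPM in controls (-0.48 ± 0.24 in 6 and -0.22 ± 0.045 in 5 libraries, adjusted p = 0.737 and 0.0173). All bradykinin libraries lay below all controls, replicate 3 by far the most. Slc24a3, a potassium-dependent sodium-calcium exchanger gene, also fell, at 45.6, 44.8 and 35.9 CPM with bradykinin, against 58.1, 55.2 and 54.4 CPM in controls (-0.41 ± 0.12 in 6 and -0.31 ± 0.066 in 5 libraries, adjusted p = 0.678 and 0.0239). These 3 calls were lost when any 1 control library was left out as well, with adjusted p of 0.0737 to 0.102 for Clic4, 0.0633 to 0.0927 for Itpr1 and 0.0529 to 0.0987 for Slc24a3, the last also without bradykinin replicate 1 (0.0689) or 2 (0.0848).

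The median log2 fold change of each list moved when bradykinin replicate 3 was left out. It was -0.053 in 6 and 0.14 in 5 libraries for 9 tested TRP and mechanosensitive channels, and -0.053 in 6 and 0.034 in 5 for 18 potassium channel subunits. For 11 sodium, acid-sensing and ligand-gated channels it was -0.28 in 6 and, with 12 tested, 0.024 in 5 libraries, and for 5 connexins and pannexins 0.16 in 6 and -0.13 in 5. The sign thus turned in these 4 lists. It was -0.20 in 6 and -0.11 in 5 libraries for 6 voltage-gated calcium channel subunits, -0.13 in 6 and -0.040 in 5 for 17 chloride and volume-regulated channels, and -0.035 in 6 and -0.00082 in 5 for 27 genes of calcium release, store entry, pumps and exchange. None of these lists held a changed gene in the 6 libraries. The smallest p in the calcium channel list was that of the beta subunit gene Cacnb2, at 4.41, 4.43 and 3.71 CPM with bradykinin, against 6.23, 6.67 and 6.02 CPM in controls (-0.59 ± 0.16 in 6 and -0.51 ± 0.17 in 5 libraries, adjusted p = 0.656 and 0.158). Among potassium channels it was that of the sodium-activated channel gene Kcnt2, at 0.709, 0.436 and 0.195 CPM with bradykinin, against 1.36, 1.26 and 1.01 CPM in controls (-1.46 ± 0.44 in 6 and -1.08 ± 0.45 in 5 libraries, adjusted p = 0.678 and 0.270). The acid-sensitive leak channel gene Kcnk3 was at 2.05, 2.03 and 1.37 CPM with bradykinin, against 1.17, 0.913 and 0.946 CPM in controls and the A-type channel gene Kcnd1 at 13.3, 12.2 and 9.44 CPM with bradykinin, against 15.3, 14.5 and 17.2 CPM in controls. The groups of these 4 genes did not overlap. Of all tested genes, 8.84% lay wholly above the controls and 8.71% wholly below them. Among TRP and mechanosensitive channels the smallest p were those of Tmc1 (-1.46 ± 0.50 in 6 and -1.26 ± 0.53 in 5 libraries), the lysosomal channel gene Mcoln1 (0.17 ± 0.10 in 6 and 0.16 ± 0.081 in 5 libraries) and Trpc4 (0.28 ± 0.18 in 6 and 0.38 ± 0.16 in 5 libraries). Besides Clic4, the chloride list gave Clic5 (0.86 ± 0.33 in 6 and 0.96 ± 0.42 in 5 libraries) and Clic1 (0.42 ± 0.19 in 6 and 0.16 ± 0.043 in 5 libraries), of which Clic1 stood in bradykinin replicate 3 at 169.8% of the mean of the other libraries. The sodium and ligand-gated list gave Scnn1a (-0.69 ± 0.36 in 6 and -0.67 ± 0.48 in 5 libraries), Scn2a (-0.69 ± 0.40 in 6 and -0.38 ± 0.31 in 5 libraries) and P2rx5 (0.20 ± 0.11 in 6 and 0.22 ± 0.11 in 5 libraries). The connexin list gave Gja5 (-0.73 ± 0.31 in 6 and -0.62 ± 0.37 in 5 libraries), Gjc3 (-0.61 ± 0.32 in 6 and -0.31 ± 0.21 in 5 libraries) and Gjb2 (0.28 ± 0.15 in 6 and 0.33 ± 0.15 in 5 libraries). In the calcium lists Cacna1b (-0.43 ± 0.34 in 6 and -0.13 ± 0.33 in 5 libraries), Cacna1a (-0.19 ± 0.29 in 6 and -0.10 ± 0.36 in 5 libraries) and the store protein gene Casq1 (0.72 ± 0.37 in 6 and 0.26 ± 0.29 in 5 libraries) followed, and Casq1 stood in bradykinin replicate 3 at 233% of the mean of the other libraries. The 6-library values of Clic1, Scn2a, Gjc3, Cacna1b, Cacna1a and Casq1 were over 1.5 times those without that library. Counts were low for some of the genes named from these lists. With bradykinin and in controls, Tmc1 had 3 to 13 and 16 to 31 counts, and Clic5 17 to 18 and 7 to 14. Scnn1a had 7 to 9 and 10 to 18, and Gja5 15 to 17 and 20 to 35. By edgeR the adjusted p of these 4 genes were 0.710 to 0.737 in 6 and 0.271 to 0.581 in 5 libraries.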

How the data were processed

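Poly-A-selected RNA was sequenced from 3 bradykinin and 3 control libraries. The deposited values are raw counts, in whole numbers, for each Ensembl gene. The submitters' processing notes list, for build Rnor_6.0, RSEM 1.3.3, HISAT2 2.2.1, fastp 0.23.2, Bowtie2 2.4.5, DESeq2 1.34.0 and SAMtools. RSEM divides reads that match several genes by estimation, the rounding of its estimates is not described, and strand is not stated, so values of overlapping or near-identical genes are uncertain. Symbols came from the table's Entrez identifiers through RefSeq (GRCr8), which named 14885 rows with a single symbol.

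Counts were fitted with edgeR 4.0.16 (R 4.3.3) using filterByExpr, TMM, the two-sided quasi-likelihood F test and Benjamini-Hochberg adjustment over all tested genes, at a threshold of 0.05. Alternatives were RLE factors, library totals, DESeq2 1.42.0, limma-voom (limma 3.58.1), no filter, 1 CPM in 3 libraries, the replicate block and each library left out. A gene span offset, and the alternatives to the fit without bradykinin replicate 3, were added after the data were seen. Members and lists were chosen with earlier results of these data known. Given in full were members with an unadjusted p under 0.05, those called without bradykinin replicate 3, and Gja1, Piezo1, Trpv4, Orai1, Stim1, Atp2a2 and Atp2b1 whatever their values; library values of further members were added after they were seen. From each related list, the 3 genes with the smallest p and any called gene were named.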

Additional observations from a re-analysis of the deposited data

How the results depend on the processing

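The count of changed genes and of changed members in the 6 libraries was 0 and 0 with RLE factors, library totals, either other filter and limma-voom. DESeq2 gave 44 genes and 1 member, and the gene span offset 1 gene and 0 members. With a library left out, 0 to 388 genes and 0 to 1 members changed, 0 to 2 genes of calcium release and pumps and 0 to 1 of chloride channels; each upper value came without bradykinin replicate 3. The deviations of same-numbered libraries from their group means had correlations of -0.094, -0.017 and -0.051. The bradykinin mean includes replicate 3, which stood apart, so these values cannot tell whether replicates were paired. With the replicate block 0 genes and 0 members changed, with a median of the members of -0.091. Without bradykinin replicate 3, leaving out a further library gave 138 to 333 changed genes (138, 145 and 209 without a control) and 1 to 3 changed members, and DESeq2 gave 2. Those beside Kcnn4 were Atp2a2 by DESeq2, Cacna2d1 (0.39 ± 0.076) without bradykinin replicate 2, and Clcn3 (-0.59 ± 0.13) and Cacna1h without replicate 1. Leaving out either replicate leaves a single bradykinin library, which is taken to vary as the controls do. For Cacna1h that library is replicate 2, with 40 counts against 0 to 2 in controls. Without bradykinin replicate 3, the replicate block kept Kcnn4 and lost Slc24a3, Itpr1 and Clic4 (adjusted p = 0.0549, 0.141 and 0.170), and the gene span offset lost Slc24a3 (0.0521).

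Genes with no call changed sign in some fits. With a library left out, log2 fold changes ran from -0.17 to 0.26 for Trpv4, -0.076 to 0.16 for Trpv2, -0.11 to 0.16 for Trpm4, -0.17 to 0.10 for Trpm7, -0.34 to 0.067 for Piezo1, -0.28 to 0.38 for Kcnma1, -0.0052 to 0.13 for Kcnk2, -0.51 to 0.21 for Cacna2d1, -0.14 to 0.13 for Orai1, -0.048 to 0.060 for Stim2, -0.36 to 0.036 for Ano6, -0.32 to 0.023 for Lrrc8a, -0.0086 to 0.15 for Atp2a2, -0.19 to 0.16 for Atp2b1, -0.22 to 0.27 for Atp2b4 and -0.24 to 0.020 for Gja1. With the gene span offset Trpm7 was at 0.030, Cacna2d1 at 0.030, Cacnb3 at -0.0045, Orai1 at -0.040, Atp2b1 at 0.069, Atp2b4 at 0.085 and Cacna1a at 0.040, and with limma-voom Kcnma1 was at -0.023. Further members moved over 1.5 times by the offset, with no change of sign, were Stim1 at -0.088, Kcnq5 at -0.25, Cacna1c at -0.14, Piezo2 at -0.080, Ano6 at -0.067, Kcnk2 at 0.28, Kcnma1 at 0.34, Stim2 at 0.18, Atp2a2 at 0.097, P2rx4 at -0.11 and Trpv2 at 0.019. Genes of the related lists moved as far were Slc24a3 (from -0.41 to -0.12), Itpr1 (from -0.48 to -0.29) and Cacnb2 (from -0.59 to -0.34). Cacna1b (from -0.43 to -0.28) and Trpc4 (from 0.28 to 0.46) did so too. The cause was not tested. With a few counts, as in Kcnj8, Ano1, Asic1, Tmc1, Kcnt2, Clic5, Scnn1a and Gja5, counting error is large. In Cacna1h and P2rx7 a single library held most reads.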
